A study of Fragaria vesca with 8 samples.

Results

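A stretch of *F. vesca* chromosome 5 was followed gene by gene in fruits that overexpressed FvVND4c or FvMYB46. It was taken as all annotated genes whose start lies from 1900000 to 2100000 on Fvb5, which gave 55 of the 34009 genes in the count files. The stretch was chosen by the measured log2 fold changes of the FvVND4c and FvMYB46 comparisons, because neighbouring genes in it were raised in both, so its responses to the constructs are given as a description and not as a test. RNA-seq was performed on fruits of the white-fruited accession Yellow Wonder, 7 days after infiltration with agrobacterium, with at least 5 fruits per treatment. The 4 groups were fruits with *35S:FvVND4c*, fruits with the empty vector of that experiment, fruits with *35S:FvMYB46*, and fruits with the empty vector of that second experiment. Each group had 2 libraries. All groups, the controls included, had been infiltrated with agrobacterium, and expression was transient and driven by the 35S promoter, which acts in most plant cells.

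FvVND4c is a NAC transcription factor of the vascular-related NAC-domain type, and such factors switch on the building of secondary cell walls in water-conducting cells. MYB46 proteins act below them in Arabidopsis and switch on genes for cellulose, xylan and lignin. Neighbouring genes in plant genomes are often copies that arose by tandem duplication, and neighbours on opposite strands can share the DNA between their starts, so the place and the strand of each gene are given beside its level. The genes are known here only by the identifiers of the v4.0.a2 annotation. None of the identifiers matched the RefSeq table at hand, so no gene name or role is given, and it was not checked whether one of them is the overexpressed gene itself.

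The 8 libraries held 9765362 to 12845942 counts assigned to genes. Levels are counts relative to the TMM-scaled total of a library, in the usual unit CPM, and 3 counts, taken as the level that a zero still allows, correspond to 0.240 to 0.327 CPM. Of the 55 genes, 37 passed the filter on low counts. Among the 18 that did not, 8 had no count in any library, and the largest total over the 8 libraries was 38 counts. Raised and lowered are used of genes with a log2 fold change beyond 1 in either direction and a p under 0.05 after Benjamini-Hochberg adjustment, from edgeR's quasi-likelihood test fitted on all 18766 genes that passed the filter. The replicate libraries differed from each other beyond sampling noise in every group, most in the empty vector of the FvMYB46 experiment, where the chi-square per degree of freedom was 16.5 (2.44 to 7.57 in the other groups). The libraries came from ground fruit and so from a mixture of cells, in which more cells of a type that uses a gene and more RNA per cell cannot be told apart.

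The genes of the stretch were packed closely and ran in both directions. There were 30 on the plus and 25 on the minus strand, and the median gap between neighbours was 1122 bases, against 1574 bases over the whole annotation. In 31 of 54 neighbouring pairs (57.4%) both genes lay on the same strand, close to the 53.1% of all pairs. Only 4 genes had a span that overlapped another, and none of the 24 genes given by identifier for a response, for a place beside a run or for a high level was among them. Spans include introns, and their median was 1231 bases, against 2297 bases for all genes.

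Upon FvVND4c overexpression, 16 of the 37 tested genes were raised and none was lowered. Over all genes tested, 4.17% were raised and 1.11% were lowered in that comparison. DESeq2 called 15 genes raised and limma on log2(TPM + 1) called 12. For the lowered genes the count was 0 in edgeR, DESeq2 and limma alike, and also at an unadjusted p under 0.05 in edgeR. Upon FvMYB46 overexpression, 10 of the 37 were raised and none was lowered, against 10.1% and 3.46% of all genes. DESeq2 and limma each called 8 raised and none lowered there, while 6 genes were lower at an unadjusted p under 0.05 in edgeR. A total of 7 genes were raised by both constructs (2.18% of all genes were), 9 were called with FvVND4c alone and 3 with FvMYB46 alone. Both FvVND4c libraries lay above both control libraries in 24 of the 37 genes and below them in 5, as they did in 28.2% and 28.6% of all genes, and the FvMYB46 libraries lay above in 17 and below in 7, against 32.9% and 28.9%. For the 37 genes together, the median response was 1.06 to FvVND4c and 0.14 to FvMYB46 on the log2 scale, against -0.01 and 0.01 over all genes. Since the stretch was chosen for these rises, nothing is read from the difference to the background.

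**Figure D1:**
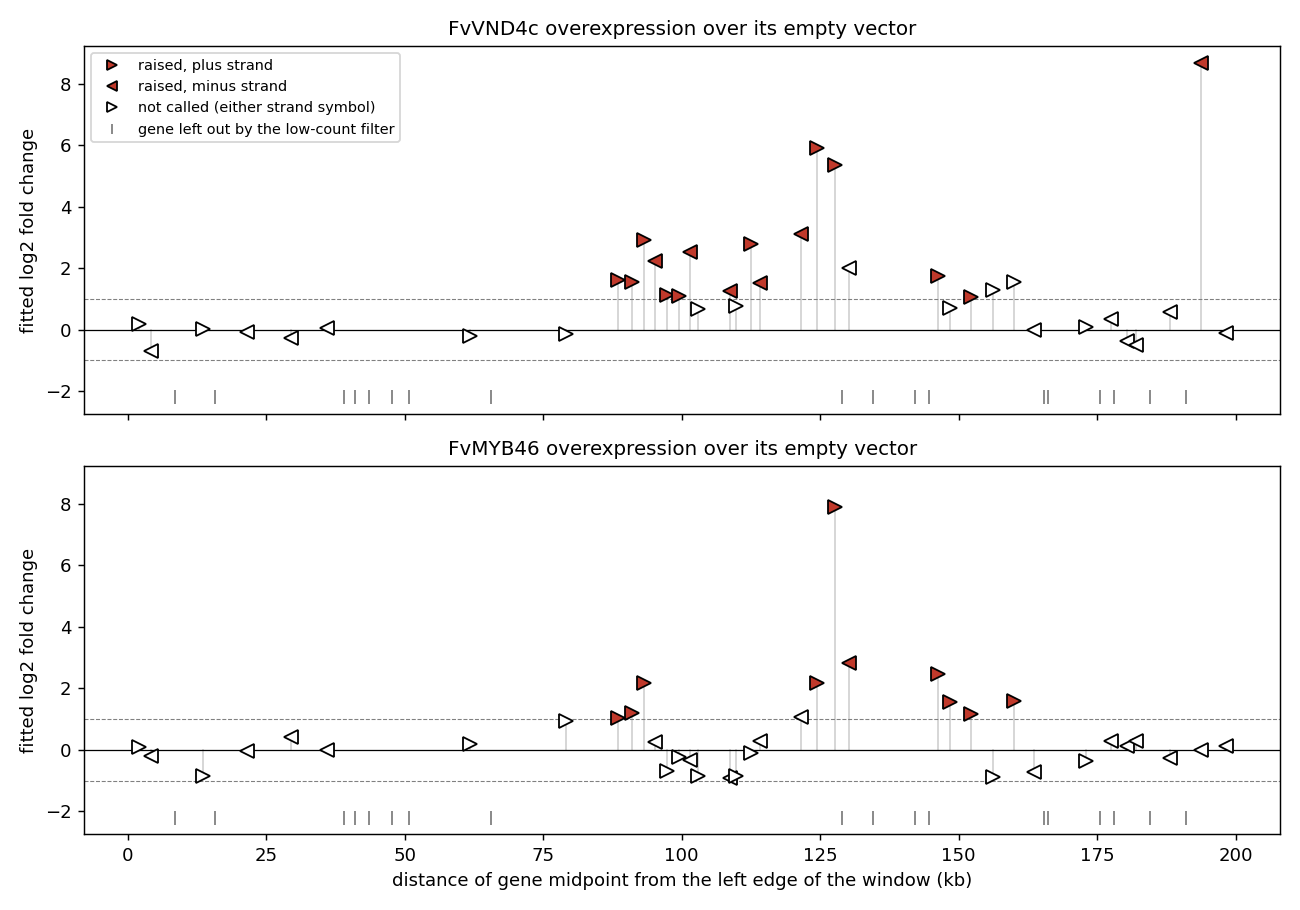
Fitted log2 fold change (y axis) of each gene of the stretch against the distance of its midpoint from the left edge in kb (x axis), for FvVND4c overexpression (top) and FvMYB46 overexpression (bottom), each over its own empty vector. Filled triangles are raised genes and point along the strand, open ones were not called, and ticks mark genes left out by the low-count filter. With FvVND4c, every tested gene from FvH4_5g03320 to FvH4_5g03460 lies above 0, and with FvMYB46 the raised genes stand at both ends of the block that ends with FvH4_5g03391 and beyond its right end. Fitted values of genes with 3 or fewer counts in the empty vector depend on the prior count.

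In the left part of the stretch, no gene was called with either construct. The 16 genes from FvH4_5g03190 to FvH4_5g03310, over 82.9 kb, held 8 tested genes. The log2 fold changes of these 8 lay from -0.69 to 0.17 with FvVND4c and from -0.85 to 0.93 with FvMYB46. FvH4_5g03220 and FvH4_5g03310 passed the adjusted p alone with FvMYB46, the first downwards (10.6% of all genes) and the second upwards (2940 of the 18766 genes tested). FvH4_5g03220, on the plus strand from 1912259 to 1914883, had the highest level per length of the stretch, with 143 CPM per kb over the 8 libraries. Its CPM values were 365 and 411 with FvVND4c and 384 and 376 in the empty vector, and 239 and 285 with FvMYB46 against 581 and 365 in the empty vector. The FvVND4c groups overlapped, and the FvMYB46 libraries lay below both of their controls (log2 fold change -0.85, standard error 0.19, not called). The value depended on the control libraries and was -0.48 without replicate 1 of the FvMYB46 empty vector, and -1.16 and then called without replicate 2. FvH4_5g03310, the last gene before the block, stood at 71.2 and 78.1 CPM with FvMYB46 and at 46.2 and 32.2 CPM in its empty vector, which is a log2 fold change of 0.93 that did not reach the fold threshold. Dropping replicate 1 of those controls gave 1.21, which was called, and dropping replicate 2 gave 0.69. With the adjusted p alone, FvH4_5g03310 began a run of 4 genes higher with FvMYB46, which reached FvH4_5g03331 over 18.8 kb. In edgeR FvH4_5g03310 was the only gene of the stretch whose response was called higher with FvMYB46 than with FvVND4c. The difference was 1.06, and 5.86% of all genes were called higher. It was 0.92 without replicate 1 of FvVND4c overexpression and 0.81 without replicate 2 of the FvMYB46 empty vector, below the fold threshold. Limma on log2(TPM + 1) also called FvH4_5g03391 and FvH4_5g03430 higher with FvMYB46. With FvVND4c it was at 40.8 and 47.3 CPM, against 45.9 and 50.5 CPM in the empty vector, where the groups overlapped. The gene just inside the left edge, FvH4_5g03190, had log2 fold changes of 0.17 with FvVND4c and 0.09 with FvMYB46, and the one just outside, FvH4_5g03180, had -0.10 and -0.08.

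After a gap of 4686 bases came a block of 15 genes from FvH4_5g03320 to FvH4_5g03391, which spans 40.2 kb from 1987912 to 2028157. All 15 passed the low-count filter. In each of them both FvVND4c libraries lay above both libraries of the empty vector (28.2% of all genes). Of the 15 genes, 13 were raised (4.17% of all genes), and FvH4_5g03341 and FvH4_5g03343 passed the adjusted p but not the fold threshold. The raised genes therefore formed a run of 7 neighbours from FvH4_5g03320 to FvH4_5g03340 over 13.9 kb, a single gene, FvH4_5g03342, and a run of 5 neighbours from FvH4_5g03344 to FvH4_5g03391 over 16.2 kb. With the adjusted p alone, which 6.82% of all genes passed upwards, all 15 made 1 run, with 10 genes on the plus and 5 on the minus strand. Only 6 of the 14 neighbouring pairs in the block (42.9%) lay on the same strand. In the block, the middle of the log2 fold changes was 1.62 for FvVND4c, against 0.27 for FvMYB46, and its range was 0.67 to 5.92 with FvVND4c and -0.92 to 7.89 with FvMYB46. The limits of the block were set after its values were seen.

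Over the whole genome, this stretch included, raised genes mostly stood alone. With FvVND4c, 619 raised genes stood alone, 63 runs held 2 genes, and only 4 runs held 4 or more, among them the runs of 7 and 5 of this stretch. With FvMYB46, 1307 raised genes stood alone and 14 runs held 4 or more, the longest of them 8 genes. When the chromosomes were divided into 1098 bins of 200 kb, the median bin held 0 genes raised by FvVND4c and 1 gene raised by FvMYB46. The largest numbers were 13 and 12, against 16 and 10 in this stretch. Bins that overlap the stretch were counted too, so its own genes may be among those largest numbers. The limits of the stretch were laid around its runs and were not those of a bin. The 100 kb on each side of the stretch held 27 tested genes. FvVND4c raised 3 of them (4.17% of all genes) and FvMYB46 raised 6 (10.1%), with 2 raised by both (2.18%). Each construct lowered 1 of the 27, against 1.11% of all genes for FvVND4c and 3.46% for FvMYB46.

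The first 3 genes of the block rose with both constructs and all lie on the plus strand. FvH4_5g03320, from 1987912 to 1989183, stood at 21.1 and 20.4 CPM with FvVND4c, against 5.77 and 7.72 CPM in the empty vector, and at 15.6 and 17.7 CPM with FvMYB46, against 8.72 and 7.36 CPM. Neither pair of groups overlapped, and the log2 fold changes were 1.62 and 1.05 (standard errors 0.18 each). FvH4_5g03330, from 1990345 to 1991575, reached nearly the same level with either construct, with 35.0 and 38.3 CPM upon FvVND4c and 36.3 and 36.4 CPM upon FvMYB46 overexpression, while the empty vectors were at 12.2 and 12.6 CPM and at 16.2 and 15.4 CPM. It rose by 1.56 on the log2 scale with FvVND4c and by 1.20 with FvMYB46. FvH4_5g03331, from 1992669 to 1993727, was the lowest of the 3 in the empty vectors and rose most. It was at 5.09 and 6.54 CPM with FvVND4c, against 0.861 and 0.657 CPM, and at 7.92 and 9.85 CPM with FvMYB46, against 2.18 and 1.76 CPM. The log2 fold changes were 2.92 (standard error 0.32) and 2.17 (standard error 0.26). For none of the 3 genes did the direct comparison of the responses call a difference, with FvMYB46 minus FvVND4c values of -0.57, -0.36 and -0.75 on the log2 scale. The rise of FvH4_5g03320 with FvMYB46 lay close to the fold threshold, and it was not called without replicate 2 of FvMYB46 overexpression or without replicate 2 of its empty vector.

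The next 9 genes, FvH4_5g03332 to FvH4_5g03345, behaved differently in the 2 experiments. These 20.6 kb held 5 genes on the plus and 4 on the minus strand. FvVND4c raised 7 of the genes (4.17% of all genes) and FvMYB46 raised none (10.1%). With FvVND4c, DESeq2 also called 7 raised, and limma on log2(TPM + 1) called 5. FvVND4c had a median of 1.26 on the log2 scale and FvMYB46 one of -0.32. For FvMYB46, the count of raised genes was also 0 in DESeq2 and limma, and at an unadjusted p under 0.05 in edgeR no gene was higher and 4 were lower. Those 4 genes, FvH4_5g03333, FvH4_5g03341, FvH4_5g03342 and FvH4_5g03343, also passed the adjusted p without the fold threshold, as 10.6% of all genes did downwards. The direct comparison of the responses called 8 of the 9 genes lower with FvMYB46, all but FvH4_5g03345, against 3.77% of all genes. DESeq2 called 7, leaving out FvH4_5g03332. Without replicate 1 of FvMYB46 overexpression the differences of FvH4_5g03332 and FvH4_5g03334 were -1.74 and -1.26, and neither was called. For FvH4_5g03332 the call was lost in most of the fits that left out 1 library. The direct comparison rests on the same libraries as the responses for which the stretch was chosen.

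FvH4_5g03341 and FvH4_5g03343 were by far the most abundant of the 9 per length, with 66.9 and 43.6 CPM per kb over the 8 libraries, and both lie on the plus strand. FvH4_5g03341, from 2002425 to 2003658, was at 83.3 and 109 CPM with FvVND4c and at 59.6 and 61.3 CPM in its empty vector. In the other experiment it was at 61.1 and 62.5 CPM with FvMYB46 and at 100 and 123 CPM in the empty vector. The empty vector of the FvMYB46 experiment thus stood as high as FvVND4c overexpression, with overlapping libraries, while FvMYB46 overexpression overlapped the empty vector of the FvVND4c experiment. The log2 fold changes were 0.67 (standard error 0.14) with FvVND4c and -0.85 (standard error 0.14) with FvMYB46. FvH4_5g03343, from 2009312 to 2010512, had the same order of groups, with 56.4 and 69.4 CPM upon FvVND4c overexpression against 36.3 and 37.9 CPM, and 40.3 and 38.0 CPM upon FvMYB46 overexpression against 62.6 and 78.2 CPM. FvH4_5g03342 lies on the minus strand from 2008011 to 2009287, so that it and FvH4_5g03343 point away from each other with 24 bases between their starts. It was far lower than FvH4_5g03343 per length, with 6.12 CPM per kb. It was at 12.3 and 12.1 CPM with FvVND4c, against 5.17 and 5.01 CPM, and at 4.60 and 5.09 CPM with FvMYB46, against 8.47 and 9.84 CPM. Its log2 fold change was 1.26 (standard error 0.19) with FvVND4c and -0.92 (standard error 0.19) with FvMYB46, and only the rise with FvVND4c was called. Without replicate 1 of the FvMYB46 empty vector, FvH4_5g03342 and FvH4_5g03343 were called lowered by FvMYB46, just past the fold threshold. The sources do not tell whether reads were counted by strand, so reads of one of these neighbours that reached into the other could not be told apart.

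FvH4_5g03340 and FvH4_5g03344 showed the clearest rises of the 9 with FvVND4c. FvH4_5g03340, on the minus strand from 2001208 to 2001843, was at 9.12 and 8.73 CPM with FvVND4c, against 1.46 and 1.64 CPM, and at 2.90 and 2.46 CPM with FvMYB46, against 3.27 and 3.44 CPM. It rose 2.51 on the log2 scale with FvVND4c (standard error 0.24), and all 4 groups lay apart. FvH4_5g03344, on the plus strand from 2011980 to 2012934, was at 8.16 and 8.29 CPM with FvVND4c, against 1.29 and 1.07 CPM, and at 1.70 and 2.21 CPM with FvMYB46, against 1.93 and 2.24 CPM. Its log2 fold change was 2.79 with FvVND4c (standard error 0.27) and -0.09 with FvMYB46, where the groups overlapped. FvH4_5g03332, on the minus strand, rose by a log2 fold change of 2.23 with FvVND4c, from a low level, with 3.60 and 2.73 CPM against 0.775 and 0.575 CPM. With FvMYB46 it was at 1.28 and 1.78 CPM, against 1.26 and 1.28 CPM in the empty vector. FvH4_5g03333 and FvH4_5g03334, both on the plus strand, rose by 1.11 and 1.10 with FvVND4c, just over the fold threshold. FvH4_5g03333 was at 10.8 and 15.9 CPM with FvVND4c, against 5.94 and 6.32 CPM, and at 6.47 and 7.39 CPM with FvMYB46, against 10.7 and 11.5 CPM, so that its empty vectors lay apart. FvH4_5g03334 was at 12.7 and 16.1 CPM with FvVND4c, against 6.89 and 6.57 CPM, and at 6.90 and 7.64 CPM with FvMYB46, against 7.38 and 9.76 CPM. FvH4_5g03345, on the minus strand, rose by 1.5 with FvVND4c, with 3.69 and 4.25 CPM against 1.46 and 1.31 CPM, and stood at 2.81 and 3.14 CPM with FvMYB46, against 2.01 and 2.80 CPM. It was the only one of the 9 genes in which both FvMYB46 libraries lay above both of their controls. FvH4_5g03333, FvH4_5g03334 and FvH4_5g03345 were no longer called without replicate 2 of FvVND4c overexpression or without either replicate of its empty vector, and the longest run then held 4 genes.

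**Figure D2:**
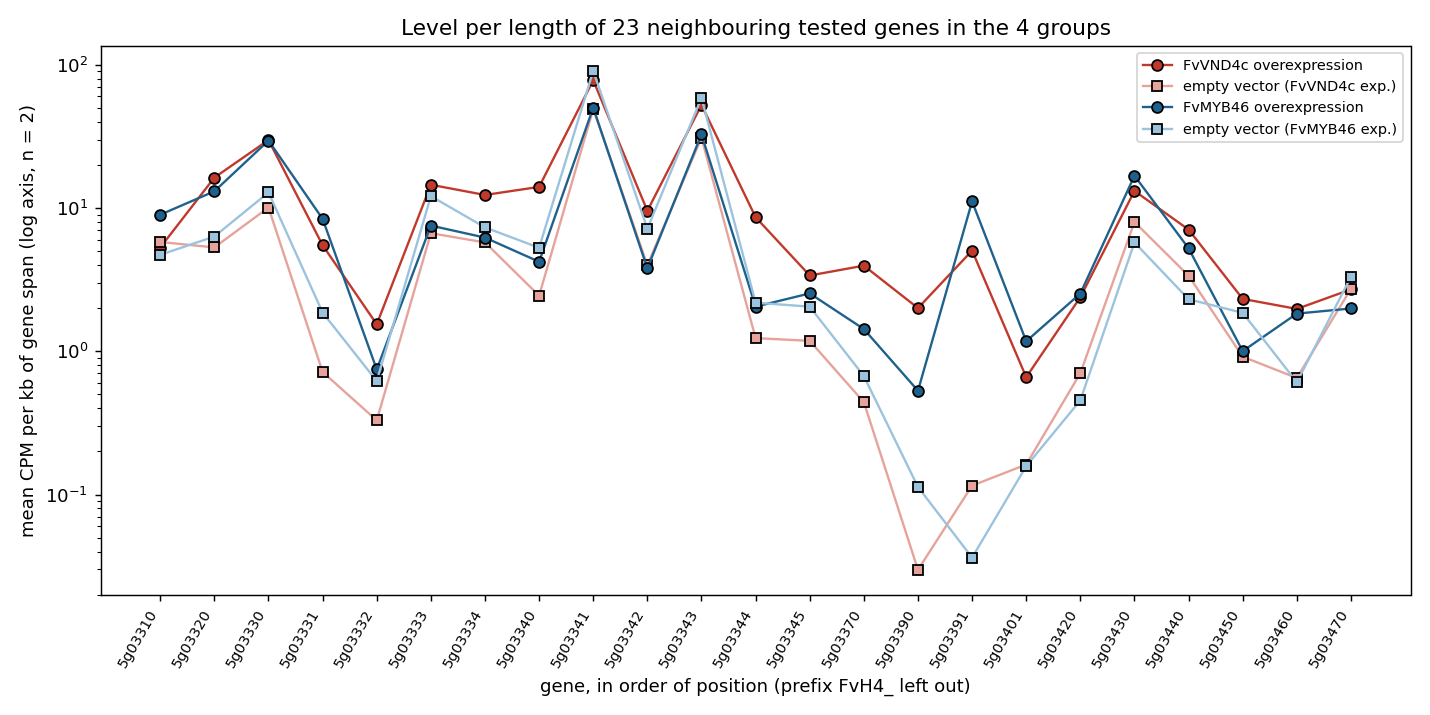
Mean CPM per kb of gene span (y axis, log scale, n = 2 libraries) of 23 neighbouring tested genes in order of position (x axis), one line per group. Red lines are the FvVND4c experiment, blue lines the FvMYB46 experiment, circles overexpression and squares the empty vector. From FvH4_5g03341 to FvH4_5g03343 the empty vector of the FvMYB46 experiment lies near FvVND4c overexpression, and from FvH4_5g03370 to FvH4_5g03440 both overexpression lines lie above both empty vectors.

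The empty vectors themselves differed over the 9 genes. In all 9, both empty-vector libraries of the FvMYB46 experiment lay above both of the FvVND4c experiment, as 22% of all tested genes did, and the median difference was 0.86 on the log2 scale, against 0.01 over all genes. Only FvH4_5g03340 was called higher at the thresholds, by 1.10, while 0.618% of all genes were, and FvH4_5g03341, FvH4_5g03342 and FvH4_5g03343 passed the adjusted p alone, as 1.67% of all genes did upwards. DESeq2 and limma on log2(TPM + 1) called none of the 9, and limma on log2(TPM + 0.1) called FvH4_5g03340. In edgeR the call of FvH4_5g03340 was lost when only the empty-vector libraries were fitted. It was also lost in most of the fits that left out 1 library. The summed level of the 9 genes was 200 and 246 CPM with FvVND4c, against 119 and 122 CPM, and 128 and 130 CPM with FvMYB46, against 198 and 242 CPM. This sum is carried mostly by FvH4_5g03341 and FvH4_5g03343. With the FvMYB46 empty vector as control for FvVND4c overexpression, 3 of the 9 genes were still raised (5.3% of all genes were), FvH4_5g03332, FvH4_5g03340 and FvH4_5g03344, with log2 fold changes of 1.32, 1.41 and 1.97. The 4 genes that lost their call there had 0.26 (FvH4_5g03333), 0.74 (FvH4_5g03334, past the adjusted p alone), 0.41 (FvH4_5g03342) and 0.71 (FvH4_5g03345). FvH4_5g03341 and FvH4_5g03343, which were not called in either comparison, had -0.22 and -0.17. With the FvVND4c empty vector as control, FvMYB46 raised 1 of the 9, FvH4_5g03345, against 8.58% of all genes, and the median was 0.18. Whether the empty-vector groups or the constructs account for the order of the 4 groups was not tested, and the comparisons across experiments also hold any difference between the experiments.

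The right end of the block, FvH4_5g03370 to FvH4_5g03391, held genes that were close to silent in the empty vectors. FvH4_5g03370, on the minus strand from 2021032 to 2022073, was at 3.77 and 4.47 CPM with FvVND4c, against 0.344 and 0.575 CPM, a log2 fold change of 3.12 (standard error 0.41). With FvMYB46 it was at 1.11 and 1.87 CPM, against 0.838 and 0.560 CPM, and although the groups lay apart, the log2 fold change of 1.08 was not called. The difference between its responses, -2.04, was not called in edgeR. It was called with the replicate block (-2.06) and in limma on log2(TPM + 1) (-1.53). FvH4_5g03390, on the plus strand from 2022945 to 2025829, had 117 counts in the 2 FvVND4c libraries and 2 counts in the 2 libraries of the empty vector. Over the scaled totals this is a ratio of 67.7 (95% exact binomial interval 18.3 to 565, for counting error alone, as for the ratios that follow). With FvMYB46 it was at 1.02 and 2.04 CPM, against 0.252 and 0.400 CPM (log2 fold change 2.19, standard error 0.60), a rise that was not called without replicate 2 of FvMYB46 overexpression or replicate 1 of its empty vector. The direct comparison called its response lower with FvMYB46 than with FvVND4c, with an adjusted p of 0.049 in edgeR. With no filter on low counts the difference was -3.76 and was not called. Without replicate 2 of the FvVND4c empty vector it was -2.79 and was not called either. Most of the fits that left out 1 library lost this call. FvH4_5g03391, on the plus strand from 2027056 to 2028157, had the reverse order of constructs, with 13.1 and 11.4 CPM upon FvMYB46 and 5.0 and 6.11 CPM upon FvVND4c overexpression. The empty vectors held 1 count over both libraries in the FvMYB46 experiment and 3 in the FvVND4c experiment. The ratio was 299 with FvMYB46 (95% exact binomial interval 53.3 to 11860) and 43.6 with FvVND4c (14.5 to 215). The difference between the responses was not called in edgeR or DESeq2, while limma on log2(TPM + 1) called it, at 1.49. These 2 adjacent genes on the same strand, 1226 bases apart, thus stood highest with different constructs.

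**Figure D3:**
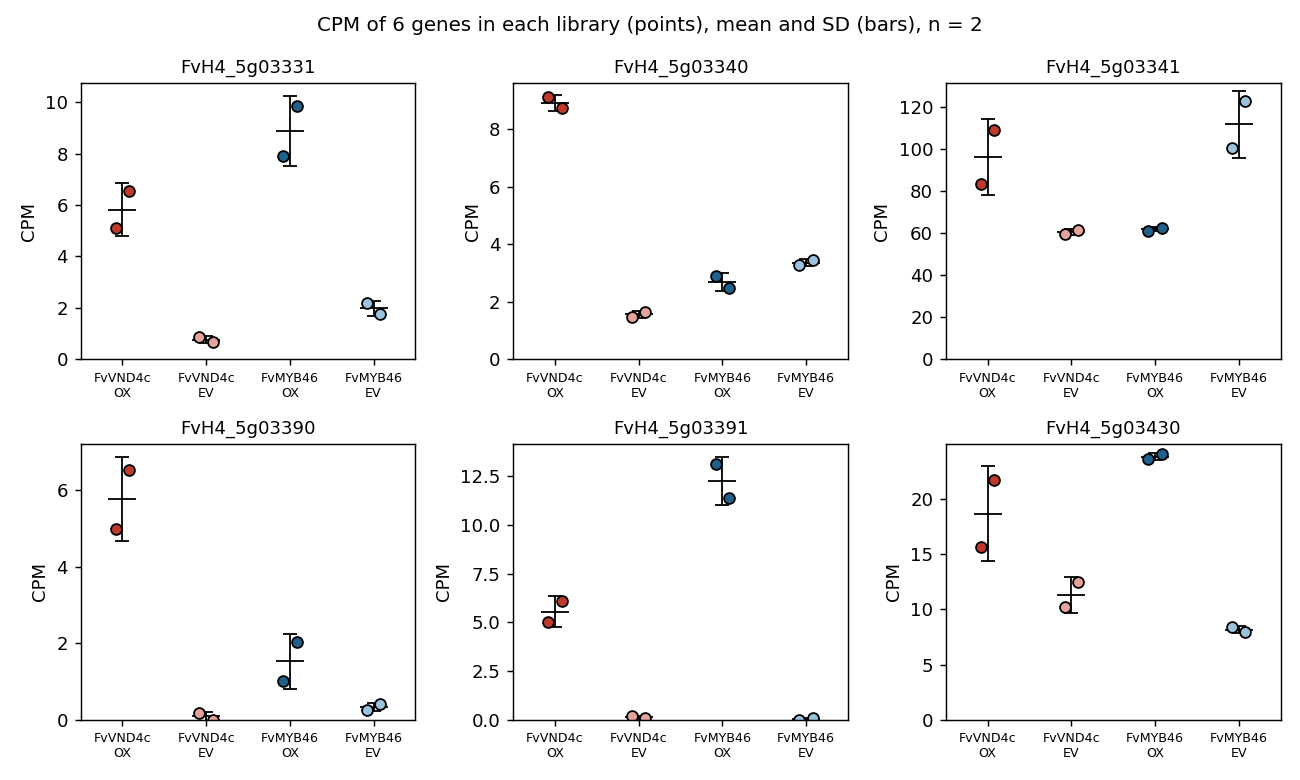
CPM (y axis) of 6 genes of the stretch in each library (points) by group (x axis), with the mean and SD as bars (n = 2), where OX is overexpression and EV the empty vector of the same experiment. FvH4_5g03331 and FvH4_5g03430 are high with both constructs, FvH4_5g03340 and FvH4_5g03390 are highest with FvVND4c, FvH4_5g03391 is highest with FvMYB46, and FvH4_5g03341 is as high in the FvMYB46 empty vector as with FvVND4c.

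The 10 genes beyond the block, from FvH4_5g03400 to FvH4_5g03460, held 6 tested genes, and 7 of the 10 lie on the plus strand. FvVND4c raised 2 of the 6 (4.17% of all genes) and FvMYB46 raised 5 (10.1%), while DESeq2 called 1 and 3 raised. The counts of calls differed more than the responses did. The FvVND4c libraries lay above their controls in all 6 tested genes and the FvMYB46 libraries in 5 (28.2% and 32.9% of all genes). The medians were 1.43 and 1.57 on the log2 scale, and the direct comparison of the responses called none of the 6 in edgeR or DESeq2. Limma on log2(TPM + 1) called 1 of them, and at an unadjusted p under 0.05 in edgeR 1 was higher and 1 lower with FvMYB46. Counting tested genes only, the run raised by FvMYB46 went from FvH4_5g03390 to FvH4_5g03440 with 6 genes over 31.0 kb. It passed over 4 genes with too few counts to be tested, which lie between FvH4_5g03391 and FvH4_5g03420. If such genes end a run, the longest run for FvMYB46 held 3 genes, and 2 runs of that length lay here, from FvH4_5g03320 to FvH4_5g03331 and from FvH4_5g03420 to FvH4_5g03440. FvH4_5g03401, on the minus strand, took part in the longer run with only 22 counts upon FvMYB46 overexpression against 3 in the empty vector, a ratio of 7.62 (95% exact binomial interval 2.29 to 39.8). It was no longer called without either replicate of FvMYB46 overexpression, without replicate 2 of its empty vector, or without either replicate of FvVND4c overexpression, which enter through the shared estimate of the spread. With FvVND4c it had 11 counts against 3 and was not called (ratio 4.24, interval 1.12 to 23.7).

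FvH4_5g03420, FvH4_5g03430 and FvH4_5g03440 are consecutive on the plus strand from 2045526 to 2053961. FvH4_5g03420 was at 2.90 and 3.60 CPM with FvVND4c, against 0.603 and 1.31 CPM, and at 3.07 and 3.82 CPM with FvMYB46, against 0.838 and 0.400 CPM. It rose with both, by log2 fold changes of 1.73 (standard error 0.41) and 2.46 (standard error 0.43). DESeq2 and limma on log2(TPM + 0.1) did not call the rise with FvVND4c. FvH4_5g03430 was at 15.6 and 21.7 CPM with FvVND4c, against 10.2 and 12.5 CPM, and at 23.6 and 24.0 CPM with FvMYB46, against 8.38 and 7.92 CPM. It rose by 1.55 with FvMYB46, while the 0.71 with FvVND4c passed the adjusted p but not the fold threshold. FvH4_5g03440 rose with both constructs by nearly the same amount, 1.07 (standard error 0.17) with FvVND4c and 1.18 (standard error 0.17) with FvMYB46. Its levels were 22.4 and 25.9 CPM against 10.3 and 12.7 CPM, and 16.6 and 19.1 CPM against 8.47 and 7.28 CPM. Both rises lay close to the fold threshold. With FvVND4c it was 0.85 in limma on log2(TPM + 1). With FvMYB46 it was 0.64 against the FvVND4c empty vector and 0.91 against all 4 empty-vector libraries. None of these values was called. In contrast to the 9 genes of the block, all 3 had a lower mean in the empty vector of the FvMYB46 experiment than in that of the FvVND4c experiment, by -0.64, -0.47 and -0.55, and none of these differences was called. In edgeR the direct comparison called no difference between the responses of any of the 3. Limma called FvH4_5g03430 higher with FvMYB46, by 1.04 on log2(TPM + 0.1). Without replicate 2 of FvVND4c overexpression or replicate 1 of its empty vector, FvH4_5g03420 and FvH4_5g03440 were not called with FvVND4c. FvH4_5g03450, the next gene on the plus strand, ended the run, with 2.10 and 3.60 CPM with FvVND4c, against 0.775 and 1.48 CPM, and 1.02 and 1.44 CPM with FvMYB46, against 3.52 and 1.04 CPM. Only the FvVND4c groups lay apart, and neither response was called. With FvMYB46 the value was 0.24 when replicate 1 of its controls was dropped, and -1.51, then called, when replicate 2 was. FvH4_5g03460, also on the plus strand, was again raised by FvMYB46, with 1.70 and 2.29 CPM against 1.01 and 0.320 CPM (log2 fold change 1.59, standard error 0.52). With FvVND4c it was at 1.58 and 2.73 CPM, against 0.517 and 0.903 CPM, a log2 fold change of 1.55 that was not called. It was called with all 4 empty-vector libraries as control (1.61) and without either replicate of the FvMYB46 empty vector. The call with FvMYB46 was lost without either replicate of FvMYB46 overexpression, without replicate 2 of its empty vector and without either replicate of the FvVND4c empty vector, and DESeq2 did not call it.

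**Figure D4:**
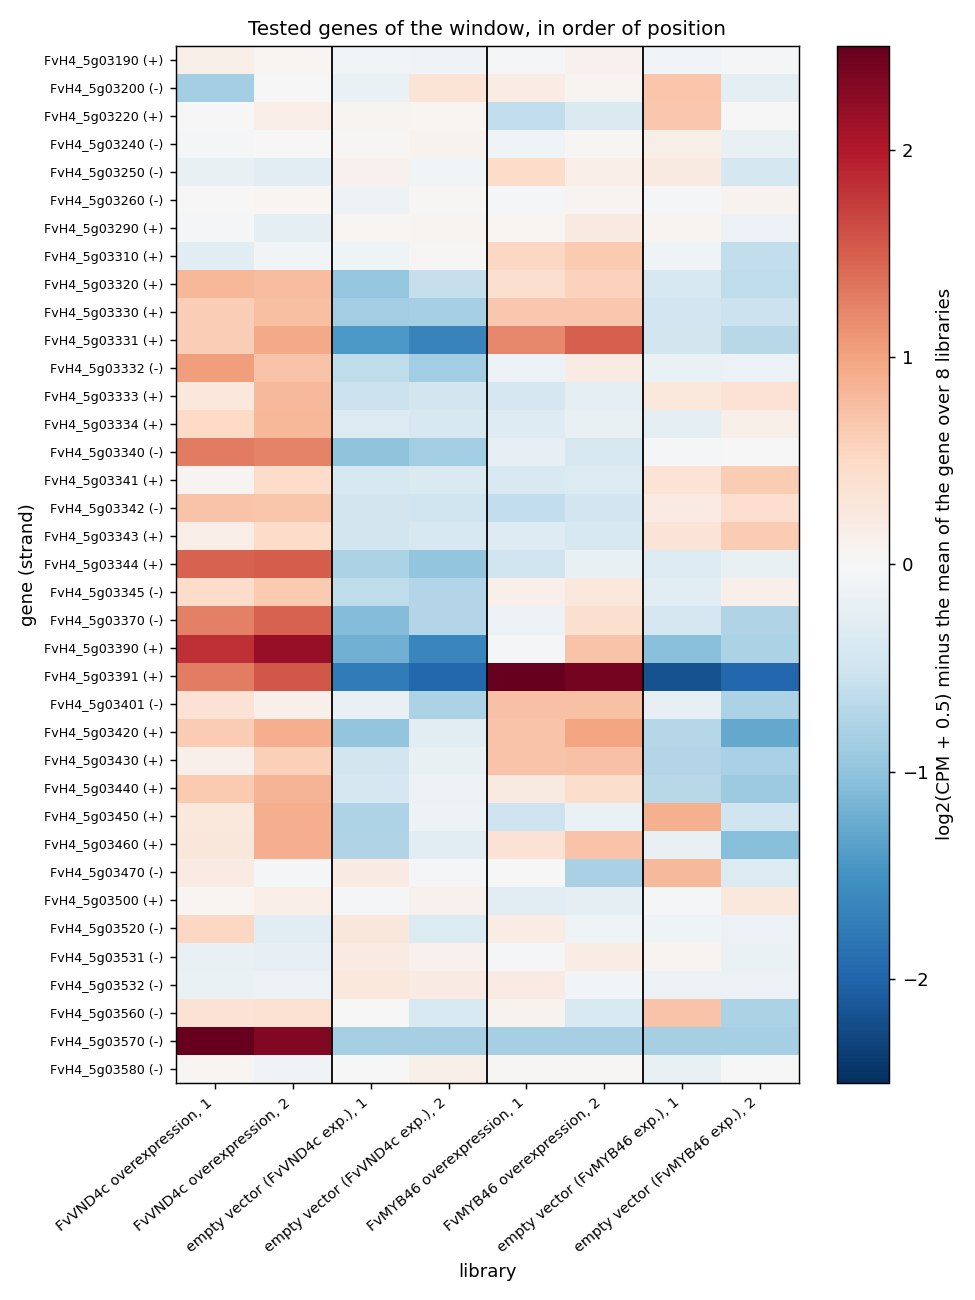
Level of the 37 tested genes of the stretch (rows, in order of position with the strand) in the 8 libraries (columns), as log2(CPM + 0.5) minus the mean of the gene over the 8 libraries, on a color scale from -2.5 to 2.5. Red marks a library above the mean of the gene and blue one below it. Most genes of the block from FvH4_5g03320 to FvH4_5g03391 are red in both FvVND4c overexpression libraries. FvH4_5g03341 and FvH4_5g03343 have their highest mean CPM in the FvMYB46 empty vector, and FvH4_5g03331 and FvH4_5g03391 with FvMYB46 overexpression.

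The last 14 genes, from FvH4_5g03470 to FvH4_5g03580, held 1 called gene, and 10 of them lie on the minus strand. Of 8 tested genes, 7 were not called with either construct, with log2 fold changes from -0.51 to 0.57 for FvVND4c once that gene is set aside, and all 8 lay from -0.73 to 0.30 for FvMYB46. The exception was FvH4_5g03570, on the minus strand from 2093367 to 2094123. It had 56 and 36 counts with FvVND4c, or 4.91 and 3.93 CPM, and no count in any of the other 6 libraries. Its mean upon FvVND4c overexpression was at least 35-fold higher than the level of 3 counts over the group of the empty vector, which is 0.126 CPM. With FvMYB46 and with its empty vector the same 3 counts allow up to 0.128 and 0.123 CPM. In edgeR the direct comparison of the responses could not call this gene. With no count in the other groups, its fitted difference had a standard error of 11020.7. DESeq2 called the difference, at -8.14 (standard error 2.71). The authors' TPM files leave the gene out. The gene just inside the right edge, FvH4_5g03580, had log2 fold changes of -0.10 with FvVND4c and 0.12 with FvMYB46, and both were 0.09 for FvH4_5g03590, just outside it.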

How the data were processed

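The analysis used 8 RNA-seq libraries from *F. vesca* fruit, 2 per group. The study's methods state 3 biological replicates for each sample, whereas the labels list 2 libraries per group, and these 2 were used. How fruits were divided over them is not given in the sources, and p-values measure the spread between these libraries. The deposited counts are whole numbers of reads on each gene. For these the authors ran fastp 0.20.1, HISAT2 2.2.1, SAMtools 1.9 and featureCounts 2.0.3 on genome v4.0.a2, with duplicates removed. The strand setting and the treatment of reads that fit several genes are not given in the sources used here, and near-identical copies could share or lose reads. The deposited TPM values were made by the authors for 17698 genes, 34 of them in the stretch, and were found to be the count divided by gene span, introns included, and rescaled.

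edgeR 4.0.16 in R 4.3.3 (limma 3.58.1) was fitted on all 8 libraries and 4 groups with filterByExpr, TMM and the quasi-likelihood test, which kept 18766 genes. The standard error was taken as the log2 fold change over the square root of F. Runs are consecutive tested genes called raised, with untested genes passed over. Genes given by identifier are those called with either construct, the first tested gene beside each run of 2 or more, and the gene with the highest level per length, and some others were named after their values were seen. The stretch and the lists were chosen with earlier results of these data known. Alternatives were DESeq2 1.42.0, limma on log2(TPM + 1) and log2(TPM + 0.1), RLE scaling, other filters, no fold threshold, 4 libraries per fit, a replicate block, other empty vectors and leaving out each library. No sequence of this genome build was used here. With 2 libraries against 2, no permutation test was made.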

Additional observations from a re-analysis of the deposited data

Results flagged for a closer look

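The responses to the 2 constructs differed by the direct comparison (FvMYB46 response minus FvVND4c response, edgeR, adjusted over all 18766 genes) in 10 genes of the stretch. On the log2 scale the difference was 1.06 for FvH4_5g03310, the last gene before the block, and negative for 9 genes inside it. These were -1.96 for FvH4_5g03332, -1.80 for FvH4_5g03333, -1.33 for FvH4_5g03334, -2.84 for FvH4_5g03340, -1.52 for FvH4_5g03341, -2.18 for FvH4_5g03342, -1.60 for FvH4_5g03343, -2.89 for FvH4_5g03344 and -3.73 for FvH4_5g03390. The value for FvH4_5g03390 is fitted against 2 counts in the FvVND4c empty vector and depends on the prior count. The calls of FvH4_5g03332 and FvH4_5g03390 were lost in most of the fits that left out 1 library. Those of FvH4_5g03310 and FvH4_5g03334 were lost in some of them. Over all genes tested, 5.86% were called with a positive and 3.77% with a negative difference. These differences use the same libraries as the responses for which the stretch was chosen.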

How the results depend on the processing

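The counts of raised genes, 16 with FvVND4c, 10 with FvMYB46 and 7 with both, became 9, 4 and 3 where every library had to hold at least 10 counts. That filter leaves 7 of the 16 and 6 of the 10 out of the fit. In the same order, DESeq2 gave 15, 8 and 6, and limma on log2(TPM + 1) gave 12, 8 and 5. With the empty vector of the other experiment as control, they were 13, 10 and 8. Leaving out 1 library in turn gave 11 to 17 raised genes with FvVND4c, 6 to 10 with FvMYB46 and 5 to 7 with both. The genes lowered by FvMYB46, 0 at the thresholds, were 0 to 3 without 1 library and 6 with no fold threshold. The longest run with FvVND4c, 7 genes, was 15 with no fold threshold, 4 with the FvMYB46 empty vector as control and 4 to 7 without 1 library. The longest run with FvMYB46, 6 genes, was 3 with DESeq2, 3 with no filter on low counts, 3 where untested genes end a run, 2 with at least 10 counts in every library and 3 to 6 without 1 library. The 1 gene called higher in the FvMYB46 empty vector than in the FvVND4c empty vector became 0 with DESeq2, with edgeR on the 4 libraries of each comparison and with limma on log2(TPM + 1), with or without a mean TPM of at least 1. It became 2 with log2(TPM + 0.1), 4 with no fold threshold and 0 to 3 without 1 library. The 1 gene with a positive difference of responses became 3 with log2(TPM + 1), 3 with a mean TPM of at least 1 and 2 with log2(TPM + 0.1). The 9 genes with a negative difference became 10 in each of these. They became 7 with at least 10 counts in every library and 11 with a replicate block. Leaving out 1 library could lower or raise both numbers. Causes other than the construction of the filters were not tested.

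No call of a gene given by identifier changed its sign under any alternative. The labels do not say that replicate numbers pair the libraries. The deviations of same-numbered libraries correlated at 0.243 in the FvVND4c and 0.176 in the FvMYB46 experiment, over genes, and with a replicate block 17 genes were raised by FvVND4c, the added one being FvH4_5g03460 at 1.59 on the log2 scale, 10 by FvMYB46 and 8 by both. With 2 libraries per group, leaving 1 out assumes that the other varies like the remaining groups. At this depth, differences of genes under about 3 counts per library were not detectable.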
